A study of Rattus norvegicus with 14 samples.

Results

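The probes described here were higher in the heart than in the soleus muscle of exercise-trained rats. They numbered 94 of the 1185 probes on the array (7.93%). A probe was a member when it was measured in both untreated samples and in all 4 exercised heart samples, and when its geometric mean intensity over those 4 heart samples was at least 1.5 times that over the 4 exercised soleus samples. Measured means a deposited intensity of 1200 or more, and no treated sample holds a lower value. Empty cells were entered at 1200, and each exercised sample was first divided by its median over the 416 probes filled in all 8 exercised samples. Of the 1185 probes, 491 met the requirement on measurement and could therefore enter, and 94 of these (19.1%) reached the ratio.

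RNA came from left ventricle or heart muscle and from soleus of rats in 7 conditions, with 1 deposited sample per tissue and condition and 14 in all. The control rats were untreated. Short heat was 2 days of acclimation at 34°C and long heat 1 month at 34°C. Short and long exercise were treadmill training at 24°C, for 3 days and 1 month, although the label of the heart sample after short exercise names no treadmill. Short and long combined treatment joined that training with acclimation at 34°C over the same 3 days or 1 month. The labels state 3 pools per group and do not say how the pools became 1 value, and they give no strain, sex or age. No sample has a replicate, so the conditions of a tissue served as its repeats, and a p-value reflects only how these samples spread.

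Heart and soleus are both striated muscles that work for long periods on oxidative metabolism. They share the slow, beta form of the myosin heavy chain that predominates in soleus and that the rat ventricle also carries beside the alpha form. The ventricle contracts without pause, couples its cells electrically through gap junctions and admits calcium at each beat. The soleus is a postural muscle of the hind leg whose fibres are driven by motor nerves, and endurance training recruits it directly. The deposited files identify probes by number only and pair none with a gene, and 0 of the 1185 identifiers were found in the reference gene table. No gene can therefore be named, no probe or gene sequence is shown, and neither the tissue labels nor the role of any member could be checked against marker genes. Individual members are given by identifier, at most 2 in each direction of a comparison.

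In the exercised samples that chose them, the members had ratios of heart over soleus from 1.502 to 11.6, with a median of 1.80. The ratio was 2 or more in 34 members, 3 or more in 8 and 4 or more in 6. These values are the selection itself and have no test. Probe R689 had the highest ratio, 11.6. Its deposited intensity in heart was 17449 and 11769 with short and long exercise, and 19698 and 15245 with short and long combined treatment. In exercised soleus it was 2667 after long exercise and empty in the other 3 samples, so no exercised soleus value came near any heart value. RG316 came next with 5.37. It lay at 6572, 7926, 8525 and 8828 in heart, in the same order, and in soleus at 2073 after long exercise and 2167 after long combined treatment, with the other 2 cells empty. At the threshold, the member RG283 had a ratio of 1.502 and the probe R051, just outside, one of 1.497. RG283 lay between 1963 and 3099 in the exercised heart samples, and in soleus at 3214, 1353 and 1366 with an empty cell after long combined treatment, so its groups overlapped. R051 lay between 3348 and 4328 in heart and between 1344 and 4665 in soleus.

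With the rule's scaling, the median ratio of the members was 2.04 with short exercise, 1.60 with long exercise, 1.87 with the short combination and 2.09 with the long one. A ratio of 1.5 or more in the condition itself was reached by 74, 53, 69 and 64 members. Between whole tissues, fewer cells of a type and less RNA per cell cannot be told apart for any of these differences.

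Empty soleus cells entered the selection widely. Of the 376 exercised soleus cells of the members, 103 were empty (27.4%), against 8.86% among the 491 probes that could enter. By sample, 40 members were empty after short combined treatment, 34 after long combined treatment, 24 after short exercise and 5 after long exercise. Over all probes, these soleus samples held 623, 897, 755 and 945 measured probes. In heart, the rule required a value in every exercised sample. Only 33 members were filled in all 4 exercised soleus samples, and 61 (64.9%) had at least 1 empty cell. When the geometric mean was taken over the filled soleus cells alone, a choice made after seeing the data, 59 of the 94 still had a ratio of 1.5 or more.

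Some empty cells stood beside high values of the same probe. Of the 31 members with 1 empty exercised soleus cell, 7 had at least 3600 in each of the other 3, which is 3 times the limit. In heart, R689 had no value after short heat and lay between 11769 and 19698 in the other samples. Of the 7 members empty in that heart sample, 3 had at least 3600 in each of the other heart samples. The source of the empty cells was not tested. The 3600 was chosen after seeing the data. The same counts were not made over the other probes that could enter, so they are not read as a trait of the members.

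**Figure D1:**
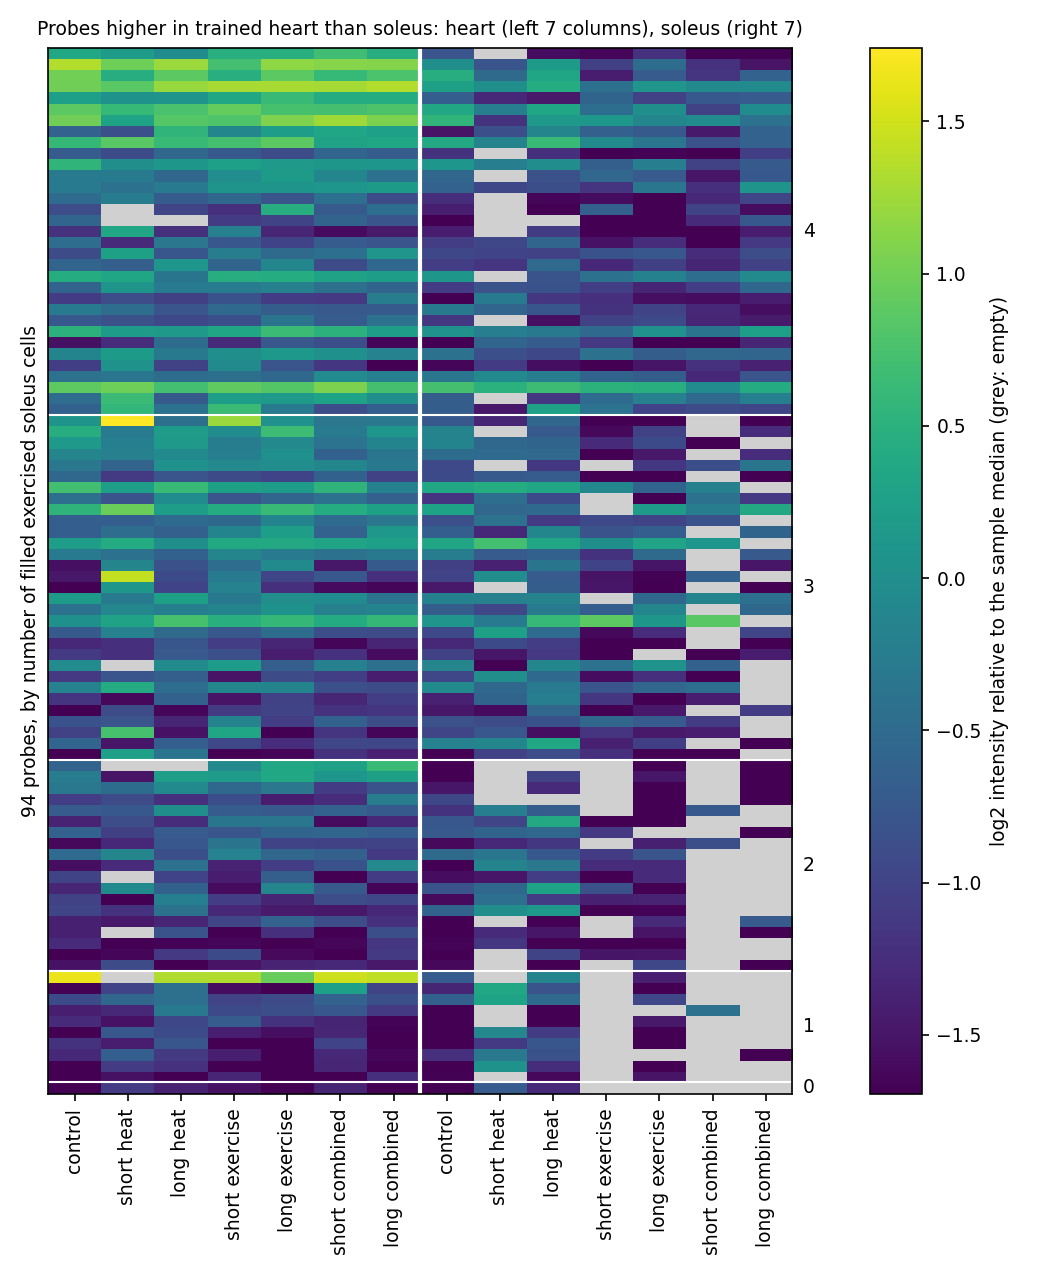
Log2 intensity of the 94 members relative to each sample's median over the 261 probes measured in all samples, with heart in the left columns and soleus in the right, and empty cells in grey. Rows are grouped by the number of filled exercised soleus cells, given at the right edge, from 33 members with 4 down to 1 member with 0. Empty cells in the exercised samples lie in soleus only, since the rule required values in exercised heart.

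**Figure D2:**
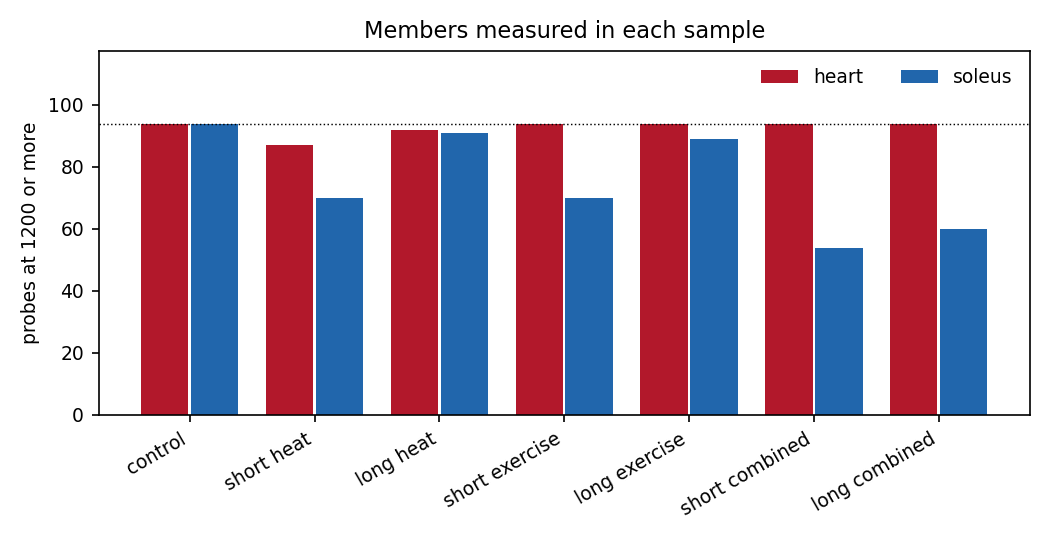
Number of members at 1200 or more in each heart (red) and soleus (blue) sample, with the dotted line at 94. The soleus samples after short combined, long combined, short exercise and short heat hold 54, 60, 70 and 70 members, and every heart sample holds at least 87.

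The 6 unexercised samples give the independent view, because the rule did not use their tissue difference and asked only that both controls be at 1200 or more. For this view each of the 14 samples was divided by its median over the 261 probes measured in all of them. Values were then raised to a common floor of 0.309 of that median, the highest scaled detection limit. On this scale the members lay higher in heart by a median of 0.27 (log2) in the controls, 0.30 after short heat and 0.24 after long heat, which are ratios of 1.21, 1.23 and 1.18. The medians over all probes above the floor in either sample were 0.05, -0.09 and 0.04. The same members had medians of 0.71, 0.65, 0.69 and 0.60 with exercise, in the order short, long, short combined and long combined. The unexercised medians thus had the same direction and were smaller. The difference between exercised and unexercised samples was not tested, since the members were picked for a high value in the former.

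In the controls, 67 of 90 members above the floor were higher in heart and 23 lower. A ratio of 1.5 or more was found for 20 of the 90, where 4.25% of all 518 probes reached it. In number, 22 of the 518 probes did so, and 20 of them were members. After short heat 36 of 90 members reached 1.5 in heart, where 21.9% of all 662 probes did, and 12 reached it in soleus, where 28.4% of all probes did. After long heat 26 of 91 members reached it in heart, where 8.72% of all 631 probes did, and 5 in soleus, where 6.34% of all probes did. In the controls 1 member reached it in soleus, where 2.32% of all probes did. Each of these counts sets 1 heart sample against 1 soleus sample and has no test. In the exercised conditions 57 of 91, 47 of 88, 52 of 91 and 47 of 90 members reached 1.5, beside 13.1%, 13.4%, 14.5% and 14% of all probes, which restates the selection.

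The size in the controls depended on the scaling. Without scaling the median of the members there was -0.05 and that of all probes -0.28, with 43 of 94 members higher in heart. In the deposited series table it was -0.04 against -0.22, with 39 of 83 higher. Relative to all probes, the members lay 0.22 higher under the median scaling, 0.20 under quantile normalization, 0.23 without scaling and 0.17 in the series table. That offset was 0.20 after long heat and 0.39 after short heat under the median scaling.

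**Figure D3:**
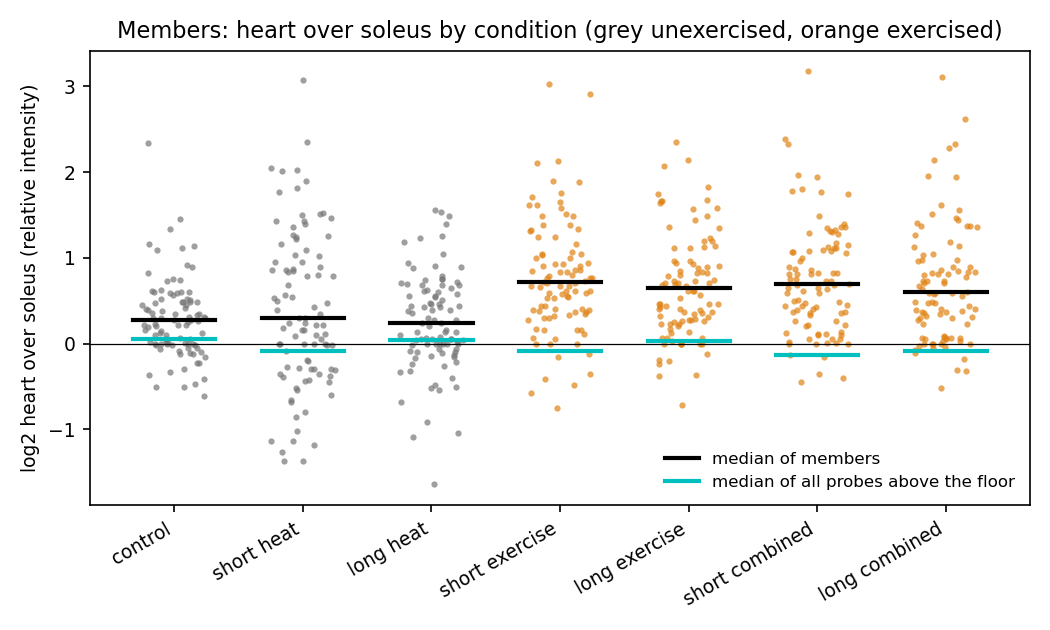
Log2 ratio of heart over soleus for each member (points) in each condition, on the median-scaled values with the common floor. Black lines are medians of the members above the floor, 0.27, 0.30 and 0.24 in the unexercised conditions (grey) and 0.60 to 0.71 in the exercised ones (orange), and cyan lines the medians of all probes above the floor, -0.14 to 0.05.

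The tissue difference was tested over the 3 unexercised conditions with a limma model that held the condition as a block. It was fitted on all 579 probes above the floor in at least 3 of the 6 samples and had 2 residual degrees of freedom. No probe passed a Benjamini-Hochberg adjusted p of 0.05 in limma (0 of 579, a background of 0%), and so 0 of the 92 members tested passed. The lowest adjusted p was 0.152. At an unadjusted p under 0.05, 22 of the 92 members were higher in heart and 2 higher in soleus, where 4.32% of all 579 probes (25) were higher in heart and 3.45% (20) in soleus. The mean difference lay above 0 in 69 of the 92 members and in 49.9% of all probes tested. The median difference of the members was 0.24 and that of all tested probes -0.00, with a median standard error of 0.22 among the members. The 2 members not tested were RG316 and R154, each above the floor in 1 of the 6 samples. Another 2 members entered the test through heart values alone, so the filter and the floor fixed their place among the 69.

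Of the 92 members tested, 36 (39.1%) were higher in heart in all 3 conditions, where 15.2% of all 579 probes were. The opposite held for 6 members, where 11.7% of all probes were lower in all 3. The lowest heart sample exceeded the highest soleus sample in 21 members (22.8%), where 5.7% of all probes tested showed this, that is 33 probes. The 36 and the 21 both include the 2 members that entered through heart values alone. For these 2 the filter and the floor fixed the outcome in advance. Of the 579 probes, 8 were at least 1.5-fold higher in heart in every unexercised condition (1.38%), and all 8 were members. Their mean ratios over the 3 conditions ran from 1.73 to 2.88, with a median of 2.19. In the exercised samples the same 8 had ratios between 1.78 and 5.31, and 5 of them were filled in all 4 exercised soleus samples. For 5 of the 8 the soleus short heat sample was empty.

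R582 and R638 had the lowest p on the heart side. R582 lay in heart at 4769 in the control, 4003 after short heat and 5968 after long heat. In soleus it lay at 2658, empty and 2576, so the groups did not overlap. Its difference was 1.20 ± 0.17 (SE, log2; limma adjusted p = 0.152). R638 lay at 7601, 6402 and 6060 in heart and at 4326, empty and 2090 in soleus. With the empty cell entered in the same way it had no overlap either, and it differed by 1.53 ± 0.22 (limma adjusted p = 0.152). In the exercised samples R638 ran from 7771 to 11414 in heart and from 1284 to 3078 in soleus. Its 7 heart values thus all lay above every soleus value it had, with soleus short heat empty. R689 lay at 18566 and 15537 in the heart control and long heat samples and at 4585 and 5590 in the soleus ones. Both of its short heat samples were empty, which left a difference of 1.28 ± 0.46 over the 3 conditions (limma adjusted p = 0.585) and 1.92 without that condition.

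Some members went the other way without exercise. R008 had the lowest difference, -0.94 ± 0.24 (limma adjusted p = 0.491). It lay in heart at 3999, 1984 and 3881 and in soleus at 6649, 3573 and 8061, in the order control, short heat, long heat, so soleus was higher in each. In the exercised samples it lay between 2556 and 3626 in heart, and in soleus at 2851, 3383 and 2013 with an empty cell after short combined treatment. R469 differed by -0.72 ± 0.36 (limma adjusted p = 0.679). Its soleus long heat value, 8115, stood above its other unexercised soleus values of 4398 in the control and 1977 after short heat, while heart held 2310, 3015 and 2572. For both probes at least 1 exercised soleus cell was empty.

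The outcome of the test depended on the short heat samples. Without those of both tissues, 23 of 85 members passed the adjusted p in limma with heart higher and 5 with soleus higher, where 6.48% of all 463 probes were higher in heart and 4.54% in soleus. The share on the soleus side was thus close to that of all probes. That fit compares the control and long heat pairs and has 1 residual degree of freedom, so its standard errors rest mainly on the spread that limma pools over probes (19.0 prior degrees of freedom). R689, R582 and R638 passed there on the heart side, and R008 and R469 on the soleus side. Without the control samples 0 of 84 members passed, where 0% of 498 probes did, and without the long heat samples 3 of 80 did, where 0.721% of 416 probes did. Leaving out the heart short heat sample alone gave 22 of 88 members higher in heart and 4 in soleus, where 5.55% and 4.25% of all 541 probes were. Leaving out the soleus one gave 27 of 92 and 5, where 6.64% and 4.36% of all 527 probes were. Both fits have 1 residual degree of freedom and an infinite prior, so that every probe was given the same spread. With the condition as a block, the short heat sample that remained had no partner and added nothing to the tissue difference. Both fits therefore used the same control and long heat pairs as the fit without both samples, and are not separate checks. R689 differed by 1.92 in all of them. They differ in the probes tested and in the pooled spread. The soleus short heat sample held the fewest probes of all samples, 531, with 24 members empty. That is 25.5% of the members, close to the 23.6% of the 491 probes that could enter. The heart short heat sample held 612 probes, with 7 members empty (7.45%), where 17.1% of the probes that could enter were empty. The part of these empty cells in the result was not tested.

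**Figure D4:**
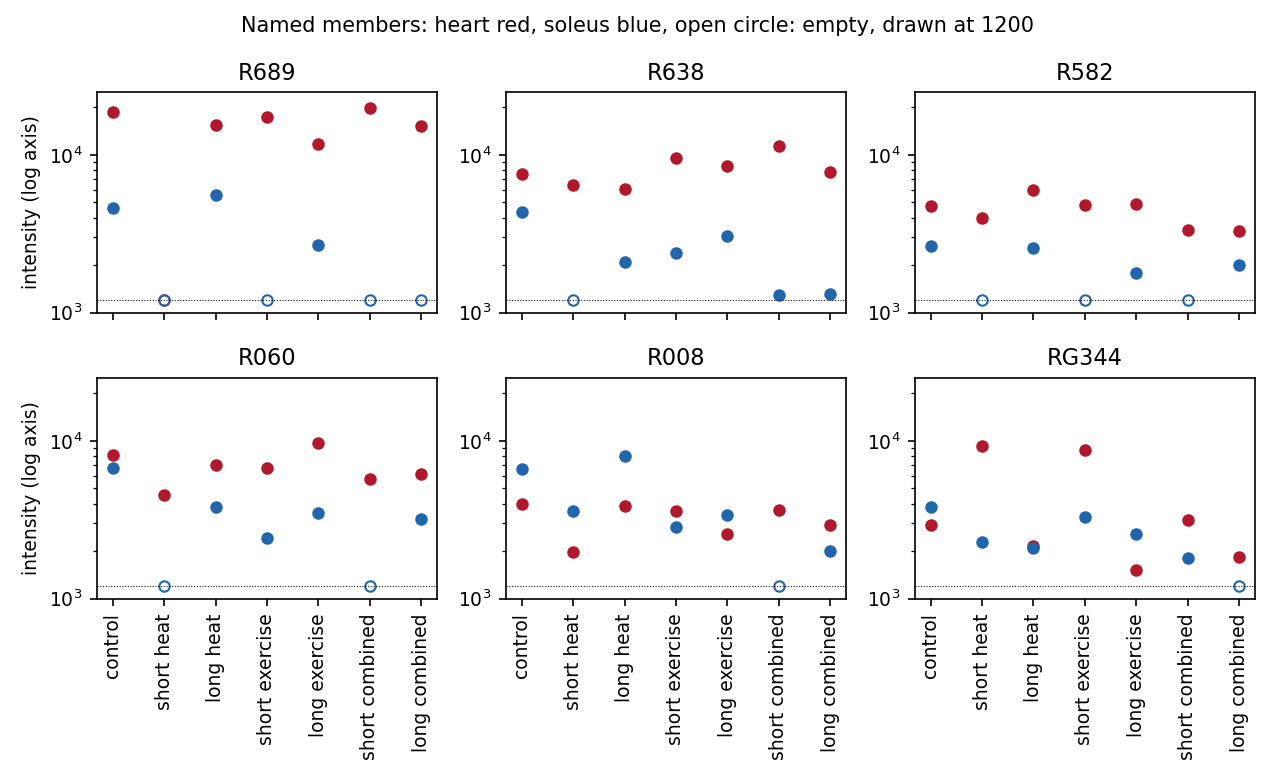
Deposited intensity (log axis) of 6 named members in the 7 conditions, heart in red and soleus in blue, with an open circle at 1200 for an empty cell. R638 and R582 have heart above soleus wherever soleus has a value, and R689 is empty in both tissues after short heat. R008 has soleus above heart in the unexercised conditions, and RG344 is highest in heart after short heat and short exercise.

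The unexercised difference varied with the completeness of the exercised soleus values, a split made after seeing the data and not tested. The 33 members filled in all 4 exercised soleus samples had a median of 0.59 (log2) over the 3 unexercised conditions, a ratio of 1.51. Their medians were 0.48 in the controls, 0.85 after short heat and 0.46 after long heat. Of the 33, 23 (69.7%) were higher in heart in all 3 conditions, 1 was lower in all 3, and 17 had a mean ratio of 1.5 or more. Of the 376 probes that could enter and were filled in all 8 exercised samples, 19.1% were higher in heart in all 3. The 61 members with an empty exercised soleus cell had a median of 0.12, a ratio of 1.08. Among them 13 (21.3%) were higher in heart in all 3 conditions and 5 lower, where 13.9% of the 115 such probes that could enter were higher. In the limma fit, 16 of 32 tested members of the complete set had an unadjusted p under 0.05 with heart higher. Among all tested probes that could enter and were filled in all 8 exercised samples, 18 of 351 did. In the incomplete set 6 of 60 members did, where 7 of 108 such probes that could enter did. After adjustment 0 of 92 members passed.

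The incomplete members were also dimmer. Their median intensity was 3013 in the heart control and 3730 in the soleus control, against 4502 and 4647 for the complete ones. All 94 members were measured in the soleus control, and 91 in the soleus long heat sample. The median unexercised difference by the number of filled exercised soleus cells was 0.59 for 4, 0.18 for 3 (31 members), 0.12 for 2 (19 members) and -0.07 for 1 (10 members), and the 1 member with none lay at -0.15. The rule's ratio did not follow that order, with medians of 1.67, 1.80, 2.05 and 2.00 for 4, 3, 2 and 1 filled cells. Across the 94 members the rule's ratio and the mean unexercised difference had a Pearson r of 0.46 and a Spearman rho of 0.28. Among the 33 complete ones these were 0.64 and 0.45. These correlations are across probes that share the same 14 samples and are given as a description.

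**Figure D5:**
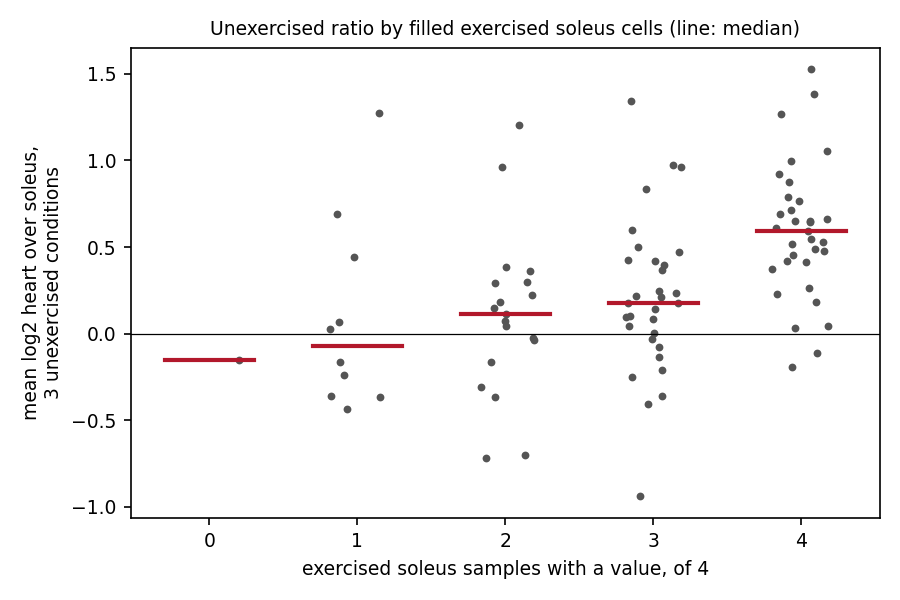
Mean log2 ratio of heart over soleus in the 3 unexercised conditions for each member (points), by the number of exercised soleus samples in which it had a value. The red medians run from 0.59 with 4 values to -0.07 with 1, and the single member with 0 values lies at -0.15.

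Within a tissue, the members' levels were compared with those of the 491 probes that could enter. In heart the median over probes of the geometric mean relative intensity was 0.630 in exercised and 0.660 in unexercised samples, against 0.639 and 0.647 for all 491. In soleus it was 0.380 in exercised and 0.554 in unexercised samples, against 0.616 and 0.626. Between exercised and unexercised soleus samples 74 members were lower and 19 higher with exercise, with a median of -0.35 (log2), and in heart 48 were lower and 46 higher, with a median of -0.02. Of the 491 probes that could enter, 250 were lower and 238 higher with exercise in soleus, and 240 lower and 250 higher in heart. The rule selects for low exercised soleus values, so the split of the members is a description. The median SD between samples was 0.22 over the exercised heart and 0.27 over the exercised soleus samples, and 0.33 and 0.36 over the unexercised ones.

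Heat and duration are balanced among the exercised samples, but the members' values there are not independent of the rule. The rule selected low or empty exercised soleus cells, and 40 and 34 members were empty with combined treatment against 24 and 5 with exercise alone. The 14-sample values are therefore a description, and the 6 unexercised samples gave the tests, a choice made after seeing the data. A limma model on all 14 samples held tissue, exercise, their product, heat and duration, and had 8 residual degrees of freedom. No probe passed adjustment in limma (0 of 555, a background of 0%), and the lowest adjusted p was 0.519. Of the 90 members tested, 4 were higher and 6 lower with heat at an unadjusted p under 0.05, where 5.23% and 2.34% of all 555 probes were. The median effect was -0.05 in members and 0.02 over all probes, and the median standard error 0.18. In the 6 unexercised samples, with 2 residual degrees of freedom, 0 of 579 probes passed adjustment in limma (0%), and so 0 of 92 members. At an unadjusted p under 0.05, 11 members were higher and 3 lower with heat, where 9.15% and 3.28% of all 579 probes were. The rule required both controls to be measured, so this test was not free of it either. The probes named were picked over all 14 samples, which include these 6. R355 had the lowest p on the higher side over the 14 samples, 0.79 ± 0.25, and differed by 1.04 ± 0.38 in the unexercised ones (limma adjusted p = 0.381). Its heart intensity was 1868 in the control, 2309 after short and 1799 after long exercise. With heat it was 2769 after short heat, 4579 after long heat, 8361 after short combined and 2873 after long combined treatment, so every heated heart value lay above every unheated one. In soleus it was 2946 in the control, 4976 after short and 3538 after long heat, 1445 after long exercise, and empty in the other 3. R060 had the lowest p on the lower side over the 14 samples, -0.48 ± 0.14, and differed by -0.78 ± 0.24 in the unexercised ones (limma adjusted p = 0.327).

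The same model also set long against short treatments. No probe passed in limma (0 of 555, a background of 0%), and the lowest adjusted p was 0.183. At an unadjusted p under 0.05, 11 of the 90 members were higher and 3 lower in long treatments, where 8.11% and 2.16% of all 555 probes were. The median effect was 0.04 in members and 0.06 over all probes. Long against short heat in the unexercised samples, which the rule did not use, again gave 0 of 579 probes in limma (0%), and so 0 of 92 members. At an unadjusted p under 0.05, 10 members were higher and 4 lower after long heat, where 11.7% and 3.28% of all 579 probes were. R060 had the lowest p on the higher side over the 14 samples, 0.60 ± 0.15, and differed by 0.73 ± 0.27 between long and short heat (limma adjusted p = 0.299). In heart it lay at 4537 after short and 7028 after long heat, at 6765 and 9672 after exercise, and at 5752 and 6143 after combined treatment, with 8171 in the control. In soleus it was empty after short and 3784 after long heat, 2434 and 3502 after exercise, and empty and 3173 after combined treatment, with 6704 in the control. The long value was higher in each of the 6 pairs.

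RG344 had the lowest p on the side of short treatments over the 14 samples, -1.02 ± 0.28, and differed by -1.53 ± 0.44 between long and short heat (limma adjusted p = 0.218). In heart it reached 9291 after short heat and 8756 after short exercise, and 3162 after short combined treatment. The long heart samples held 2143, 1517 and 1844, in the order heat, exercise, combined, and the control 2928. In soleus the values ran from 1803 to 3783 with an empty cell after long combined treatment. The heart values after short treatment thus lay above all 3 long ones, and those after short heat and short exercise stood well apart from the third. Some other members with the prefix RG also had their highest heart values after short heat and short exercise, each a single sample.

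By identifier, 64 members had the prefix R and 30 the prefix RG (68.1% R), against 302 and 189 among the 491 that could enter (61.5%) and 702 and 483 on the array (59.2%). The labels do not say what the prefixes stand for. In brightness the members spanned a narrower range than the other probes that could enter. Their intensity in the heart control had a median of 3881 and an interquartile range of 2510 to 5386, and the 397 probes that could enter but were not members had 3656 and 2288 to 7916. Of the 94 members, 23 were measured in all 14 samples, 87 in all 7 heart samples and 23 in all 7 soleus samples.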

How the data were processed

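The authors deposited 1 intensity per probe and sample, on a linear scale in arbitrary units, from arrays of radioactively labelled targets, per the labels' protocols (Tri-Reagent RNA, Clontech labelling). Image software, background subtraction, scaling and the joining of the 3 pools: not given in the sources used here. For 4 samples the deposited values carry the unit other, because some lines lack a second cell, and were read as the same intensity. Treated samples hold no value under 1200, and 39.3% of their cells are empty. The deposited series table holds a second, relative intensity, with column medians from 0.253 to 1.255, and what it is relative to is unknown. It served as an alternative.

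Values were divided by the sample median over 261 probes, floored and transformed to log2. Models were fitted with limma 3.58.1 in R 4.3.3 and tested on simulated data. All tests were two-sided, p-values were adjusted by Benjamini-Hochberg across every probe tested, and entry needed values above the floor in 3 of 6 or 7 of 14 samples. Alternatives changed the ratio, the scaling, the floor, the filter, the model terms, the value table and the samples left out. Named probes were those with the 2 highest ratios by the rule, the 2 lowest p on the heart side and the 2 lowest differences in unexercised samples, and the lowest p in each direction for heat and duration, with 1 probe on each side of the threshold. Planned gene lists and marker lists could not be used without gene names. The members, lists and rules were chosen with earlier results of these data known. The labels do not say that samples come from separate animals, and the number of arrays limits the precision.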

Additional observations from a re-analysis of the deposited data

How the results depend on the processing

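The number of members, 94, came to 151 at a ratio of 1.3 and 34 at 2. It was 59 over filled exercised soleus cells alone and 33 when all 8 exercised samples had to be filled, both settings chosen after seeing the data. It ran from 82 to 107 when 1 exercised sample or condition was left out, also added after seeing the data. Of the 94, between 75 and 91 were kept in these settings. It was 86 with quantile normalization, 69 without scaling and 114 in the series table, of which 84, 69 and 94 were among the 94, and 98 when empty exercised heart cells were kept at 1200.

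For heart against soleus in unexercised samples, the count of 0 members higher in heart became 1 without a filter on low values, where 2 of all 1185 probes passed. It was 23 without the short heat samples of both tissues and 3 without the long heat samples, where 6.48% and 0.721% of all probes were higher in heart. Leaving out 1 sample gave counts from 0 to 27, the latter where 6.64% of all 527 probes were higher in heart. Each such fit used the same pairs as leaving out that condition in both tissues. The other settings run gave 0, and the cause of the changes was not tested. The median difference of the members, 0.24, was 0.27 with quantile normalization, 0.31 without scaling, 0.14 in the series table, 0.18 with a pseudocount and no floor, 0.18 for probes measured in all 6 samples and 0.26 without a filter. It was 0.26 without the controls, 0.26 without short heat and 0.32 without long heat, 0.24 to 0.32 with 1 sample left out, and 0.60 for the tested members filled in all 4 exercised soleus samples. None of these turned the sign, nor did any alternative for the 8 probes named in tests. Members at 1.5-fold or more in heart numbered 10 in the controls and 56 after short heat without scaling, where 1.77% and 39.8% of all probes did so. Heat and duration gave 0 members called in all 24 alternatives each. Over all probes, heat gave 0 in each as well. For duration 4 of all 740 probes passed without scaling and 1 of 528 without the soleus short heat sample, with 0 in the other alternatives. The median effect over all probes was -0.16 and 0.19 without scaling, against 0.02 and 0.06. No paired analysis by replicate number was possible because the labels give none and each group has 1 sample. Heart and soleus were compared within condition, and without that block 0 members passed as well.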
